A study of Homo sapiens with 18 samples.

Results

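U2OS cells carrying the EWS-FLI1 fusion and treated for 24 h with the CDK4/6 inhibitor LY2835219 were compared with U2OS cells carrying mCherry alone. The comparison took the 3 libraries whose titles name mCherry-EWS-FLI1 and a 24 h treatment and the 3 libraries whose titles name mCherry alone, untreated, 6 of the 18 libraries of the series. It was run across 16786 genes, and it asked which genes that depend on the fusion were back at the mCherry level after treatment, past it, or still apart from it. U2OS is a human osteosarcoma cell line, and polyA RNA was sequenced.

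The cells fell into these groups of 3 libraries. The 24 h group was U2OS with integrated mCherry-EWS-FLI1 in 7.5 µM LY2835219 (abemaciclib). Untreated mCherry-EWS-FLI1 cells and untreated cells with mCherry-EWS-FLI1mut, whose change the labels do not describe, were used to define the genes that depend on the fusion. The group with mCherry alone was untreated. All 4 groups therefore carried mCherry, and the 24 h group differed from the mCherry group in both the fusion and the drug, which cannot be told apart by this comparison alone. The titles and the sample characteristics state 24 h, while the treatment protocol lists only 0, 3 and 6 h. Neither a vehicle, the promoter driving the constructs, nor whether a line was a clone or a pool is given in the sources used here. A group's libraries carry the label of biological replicates, and nothing shows that they came from separately derived lines, so standard errors and p-values measure the spread among these libraries.

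EWS-FLI1 drives Ewing sarcoma. In this fusion the amino-terminal part of the RNA-binding protein EWSR1 is joined to the DNA-binding domain of the ETS factor FLI1, and the product both activates and represses genes. CDK4 and CDK6, with D-type cyclins, phosphorylate RB and its relatives, which releases E2F factors to switch on the genes of S phase. An inhibitor of these kinases holds RB active, so that E2F targets and, later, the genes of mitosis are transcribed less. U2OS cells retain RB, and they are mesenchymal cells of bone origin that normally lack the Ewing fusion.

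The 6 libraries held 16261034 to 18995968 estimated counts each. The 24 h libraries lay apart from all other groups on the second principal component of the 18 libraries, which held 14.3% of the variance, with scores of -63.24 to -60.17, against 8.329 to 10.59 in mCherry libraries. The share of counts on mitochondrial genes was 6.16 ± 0.380% at 24 h and 4.73 ± 0.279% in mCherry cells (SD, n = 3 each). An exact permutation test of that difference gave p = 0.1, two-sided, the smallest that 3 against 3 libraries allow. The bone markers COL1A1, RUNX2, SPP1, ALPL and SPARC were all expressed, with COL1A1 at 2458, 2782 and 2152 CPM at 24 h, against 1789, 1572 and 1714 CPM in mCherry cells. The blood cell marker CD3E held no count in any of the 6 libraries, and the 9 blood cell markers together summed to 2.37 to 2.64 CPM at 24 h and 1.71 to 2.00 CPM in mCherry cells.

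Levels below are CPM, estimated counts scaled to library size with TMM factors, given for libraries 1, 2 and 3 of a group, or as mean ± SD with n = 3. Log2 fold changes are 24 h minus mCherry and carry their standard error. A gene was called when its p from the edgeR quasi-likelihood test, adjusted by Benjamini-Hochberg over all 16786 genes, was under 0.05.

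FLI1 (ENSG00000151702, hg38 chromosome 11, 128686535 to 128813267, plus strand) had 244, 240.5 and 225 CPM in 24 h EWS-FLI1 cells, against 1.16, 0.426 and 0.0534 CPM in mCherry cells. All 24 h libraries were far above all mCherry libraries, with a log2 fold change of 8.72 ± 0.17, adjusted p = 1.35e-20. The untreated EWS-FLI1 cells had 247 ± 16.3 CPM, and the 24 h minus untreated log2 fold change was -0.07 ± 0.09. EWSR1 (chromosome 22, 29268009 to 29300525, plus strand), whose own transcript also takes fusion reads, had 799, 798 and 738 CPM at 24 h, against 348.5, 329 and 343 CPM in mCherry cells, and its log2 fold change was 1.19 ± 0.05, adjusted p = 1.46e-15. Per length, EWSR1 stood at 1362 ± 70.6 TPM at 24 h and 222 ± 11.9 TPM in mCherry cells, a larger difference than in CPM, and 30.2% of the 31-base stretches of its most counted transcript also occur in other genes.

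Treated fusion cells differed from mCherry cells across much of the transcriptome. A total of 8128 of 16786 genes were called, which is 48.4%, with 4023 higher (24%) and 4105 lower (24.5%) at 24 h. A log2 fold change of at least 1 was reached by 794 genes that were higher (4.73%) and 1045 genes that were lower (6.23%). In 9231 genes (55%) the 3 libraries of 24 h EWS-FLI1 cells did not overlap the 3 mCherry libraries. Since so many genes were called, the counts of members below are read beside these percentages. When the null was a difference of up to 0.5 on the log2 scale instead of 0, 2483 genes were called (14.8%), 1023 higher (6.09%) and 1460 lower (8.7%).

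**Figure D1:**
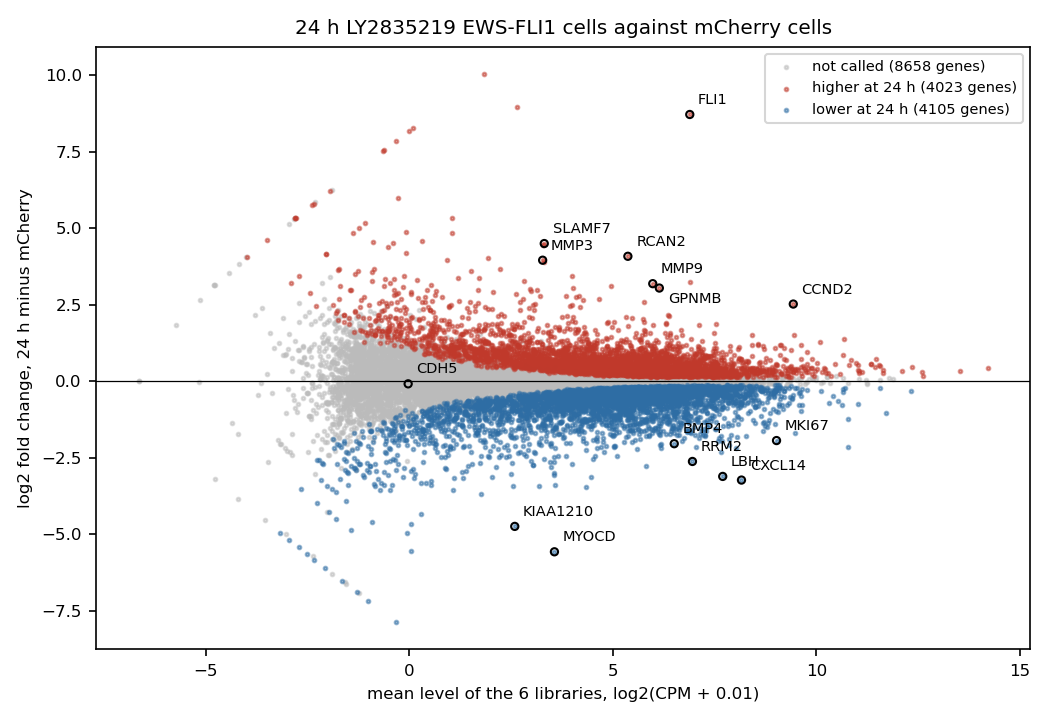
Log2 fold change of 24 h EWS-FLI1 over mCherry cells (y axis) against the mean level of the 6 libraries on a log2(CPM + 0.01) scale (x axis), 1 point per gene tested. Red points are the 4023 genes called higher at 24 h, blue points the 4105 called lower and grey points those not called, and named genes are circled.

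Genes that were almost silent in mCherry cells and clearly expressed at 24 h led the higher side. FKBPL, an immunophilin-like protein, had 6.95, 7.65 and 6.69 CPM at 24 h, against 0, 0 and 0 CPM in mCherry cells. It held 399 estimated counts at 24 h and 0 in mCherry cells. Setting the mCherry group to a floor of 3 counts over the group makes FKBPL 127.5-fold higher, which allows for counting error only. Its fitted log2 fold change had a 95% interval of 4.87 to 15.19, whose lower end lies below that fold, and a standard error of 2.48. DESeq2 gave FKBPL no adjusted p. Transcripts without a GENCODE match were dropped, and whether reads of FKBPL were assigned to any of them was not tested. DCDC2C, a doublecortin-domain protein, had 12, 12.7 and 13 CPM at 24 h, against 0, 0.0609 and 0 CPM in mCherry cells. Neither gene was at a comparable level in untreated fusion cells, where FKBPL had 0.052 ± 0.0511 CPM and DCDC2C 0.195 ± 0.205 CPM.

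SLAMF7, a surface receptor of the SLAM family, had 17.5, 22.1 and 17.5 CPM at 24 h, against 0.843, 1.04 and 0.6405 CPM in mCherry cells, a log2 fold change of 4.50 ± 0.25, adjusted p = 3.04e-13. RENBP, which converts N-acetylglucosamine to N-acetylmannosamine, was at 17.6, 19.1 and 18.7 CPM at 24 h, against 0.422, 0.975 and 1.12 CPM in mCherry cells (4.46 ± 0.29, adjusted p = 7.5e-12). RCAN2, an inhibitor of the phosphatase calcineurin, reached 76.9, 81.7 and 75.3 CPM at 24 h, against 4.59, 5.91 and 3.36 CPM in mCherry cells (4.08 ± 0.15, adjusted p = 3.6e-16). The higher genes named here were chosen to be called without overlap between the groups, so their separation comes from the choice. MMP3, a stromelysin that degrades matrix proteins, had 19.3, 17.1 and 18.2 CPM at 24 h, against 1.63, 1.22 and 0.6405 CPM in mCherry cells (3.96 ± 0.30, adjusted p = 9.16e-11). DGKI, a diacylglycerol kinase, had 7.48, 8.58 and 9.8 CPM at 24 h, against 0.264, 1.22 and 0.587 CPM in mCherry cells (3.66 ± 0.40, adjusted p = 6.16e-08). ODAPH, which takes part in enamel mineralization, had 5.41, 5.01 and 5.29 CPM at 24 h, against 0.369, 0.67 and 0.267 CPM in mCherry cells (3.59 ± 0.46, adjusted p = 7.29e-07). AC003005.1 and the readthrough gene NME1-NME2 were also called, with log2 fold changes of 4.02 and 3.45, but 93.9% and 97.6% of the stretches of their most counted transcripts occur in other genes, so their counts are uncertain.

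On the lower side stood MYOCD, the coactivator of serum response factor in heart and smooth muscle, with 0, 0.88 and 0.57 CPM at 24 h, against 26.25, 22.2 and 21 CPM in mCherry cells and a log2 fold change of -5.57 ± 0.38, adjusted p = 1.92e-11. CCL24, an eosinophil chemokine, had 0.69, 0.55 and 0.207 CPM at 24 h, against 5.11, 6.76 and 6.83 CPM in mCherry cells (-3.68 ± 0.35, adjusted p = 6.58e-09). SPC25, a subunit of the kinetochore NDC80 complex, had 1.96, 5.23 and 2.9 CPM at 24 h, against 40.2, 32.4 and 37.7 CPM in mCherry cells (-3.46 ± 0.25, adjusted p = 5.22e-11). The lower genes named here too were chosen to be called without overlap between the groups. Secreted regulators followed. The BMP and WNT antagonist SOSTDC1 was at 1.01, 1.32 and 0.622 CPM at 24 h, against 6.8, 11.1 and 14.1 CPM in mCherry cells (-3.43 ± 0.36, adjusted p = 2.71e-08). The chemokine CXCL14 was at 46.5, 56.2 and 62.6 CPM at 24 h, against 421, 568 and 561 CPM in mCherry cells (-3.23 ± 0.12, adjusted p = 5.16e-16). LBH, a transcription cofactor of limb and heart development, was among the most abundant of them, with 38.5, 48 and 42.9 CPM at 24 h, against 345, 379.5 and 391 CPM in mCherry cells (-3.11 ± 0.08, adjusted p = 7.64e-19). TNNT2, the cardiac troponin T, had 2.92, 1.87 and 2.7 CPM at 24 h, against 24.1, 18.5 and 20 CPM in mCherry cells (-3.06 ± 0.19, adjusted p = 3.58e-12). GALNT15, CD200, PRR16 and TBX10 completed the set, with log2 fold changes of -3.40, -3.14, -3.13 and -3.02.

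Of 4 genes already known from these data to be raised by the fusion, CDH5 and CD248 were back at the mCherry level. Back means not called, with a 95% interval within 1 log2 unit of mCherry. KIAA1210 was far below mCherry, and CXCL8 was not resolved. CDH5, the VE-cadherin of endothelial junctions (chromosome 16, 66366622 to 66404786, plus strand), had 0.478, 1.155 and 1.19 CPM in 24 h EWS-FLI1 cells, against 1.265, 1.04 and 0.694 CPM in mCherry cells. The 2 groups overlapped, and the log2 fold change was -0.08 ± 0.32, adjusted p = 0.852, with a 95% interval of -0.75 to 0.58. Untreated fusion cells held 6.96 ± 0.499 CPM, a log2 fold change of 2.79 over mCherry. CD248, the pericyte and stromal glycoprotein endosialin (chromosome 11, 66314487 to 66317044, minus strand), had 3.5, 1.82 and 1.71 CPM at 24 h, against 1.79, 2.68 and 3.95 CPM in mCherry cells. Here too the groups overlapped (-0.26 ± 0.29, adjusted p = 0.49, interval -0.87 to 0.35), while untreated fusion cells were at 15.2 ± 3 CPM, 2.44 over mCherry on the log2 scale.

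CXCL8, the neutrophil chemokine interleukin-8 (chromosome 4, 73740506 to 73743716, plus strand), had 1.96, 1.32 and 0.933 CPM at 24 h, against 0.685, 2.56 and 2.4 CPM in mCherry cells. The spread among mCherry libraries was wide, the groups overlapped, and the interval of -1.22 to 0.41 around -0.41 ± 0.39 (adjusted p = 0.422) reached beyond 1 log2 unit, so a return to the mCherry level was not resolved. It had 7.12 ± 2.345 CPM in untreated fusion cells. KIAA1210, an X-linked gene with few described functions (chromosome X, 119078635 to 119150579, minus strand), had 0.4245, 0.495 and 0.363 CPM in 24 h EWS-FLI1 cells, against 9.59, 12.5 and 12.7 CPM in mCherry cells. Every 24 h library was below every mCherry library, with a log2 fold change of -4.74 ± 0.19, adjusted p = 8.96e-16. In untreated fusion cells it stood at 45.35 ± 3.96 CPM, 1.97 above mCherry on the log2 scale, so its difference from mCherry had the opposite sign with the drug.

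**Figure D2:**
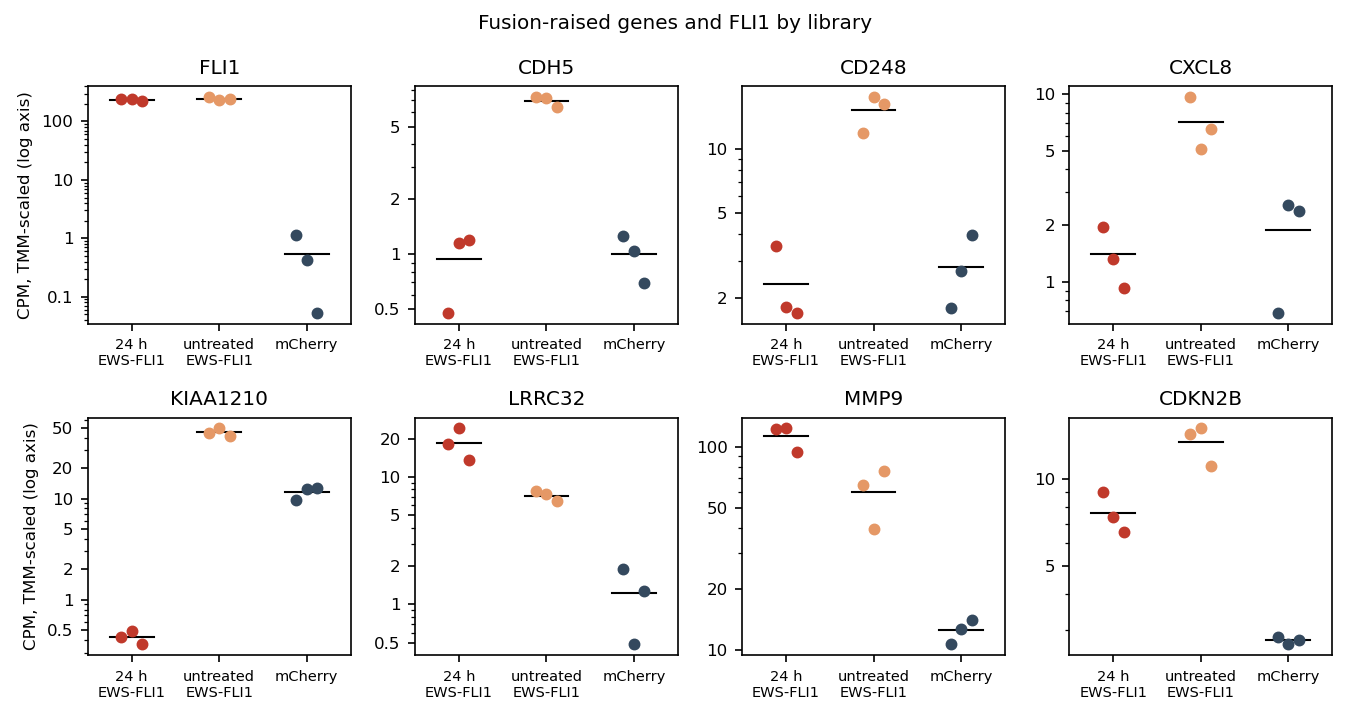
CPM by library (log axis) of FLI1 and 7 genes raised by the fusion, in 24 h EWS-FLI1, untreated EWS-FLI1 and mCherry cells, each with 3 libraries (dots) and their mean (line). CDH5, CD248 and CXCL8 at 24 h overlap the mCherry libraries, KIAA1210 lies below them, and LRRC32, MMP9 and CDKN2B stay above them.

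Genes that depend on the fusion were taken as those called between untreated EWS-FLI1 and mCherry cells with a log2 fold change of at least 1 in size. There were 179 raised genes (1.07%) and 141 lowered genes (0.84%). Each was given a state from its own 24 h minus mCherry row. It was still apart when called in the direction of the fusion, past when called in the opposite direction, back when not called with a 95% interval wholly within -1 to 1, and unresolved otherwise. This definition uses the same 3 mCherry libraries as the comparison at 24 h, so the counts are a description.

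Of the 179 raised genes, 77 were still apart, 29 were past, 28 were back and 45 were unresolved, beside the 24% higher and 24.5% lower of all genes tested. Their median log2 fold change was 0.58 at 24 h and 1.45 in untreated fusion cells, both over mCherry, while the median of all genes tested was 0.02 at 24 h. FLI1 and EWSR1 are themselves 2 of the 77. Against untreated fusion cells, which also define these genes, 106 of the 179 were called at 24 h in the direction of mCherry. They include 30 of the 45 unresolved. Of the 77 still apart, 32 were called in that contrast, 19 of them towards mCherry. Without mCherry replicate 1 the numbers past and back were 19 and 14, so these counts lean on that library. With an interval bound of 0.5 in place of 1, 8 raised genes and 0 lowered genes were back. CDH5, CD248, A2M and EPPK1 were not among the 8, since their intervals reach beyond 0.5. The raised genes still apart were 33 with limma on log2(TPM + 1) and 32 under the null of up to 0.5, and those past were 11 in both settings. Of the 141 lowered genes, 62 were still apart, 8 past, 17 back and 54 unresolved, with a median of -0.77 at 24 h and -1.32 in untreated fusion cells. Against untreated fusion cells, 60 of the 141 were called towards mCherry, 28 of them unresolved. Of the 62 still apart, 21 were called in that contrast, 7 of them towards mCherry. Leaving out 24 h replicate 1 or 3 left 9 of the lowered genes back, and leaving out mCherry replicate 1 or 3 left 11. The number still apart among the lowered genes was 38 when gene counts were corrected for effective transcript length, 24 with limma on log2(TPM + 1) and 18 under the null of up to 0.5.

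**Figure D3:**
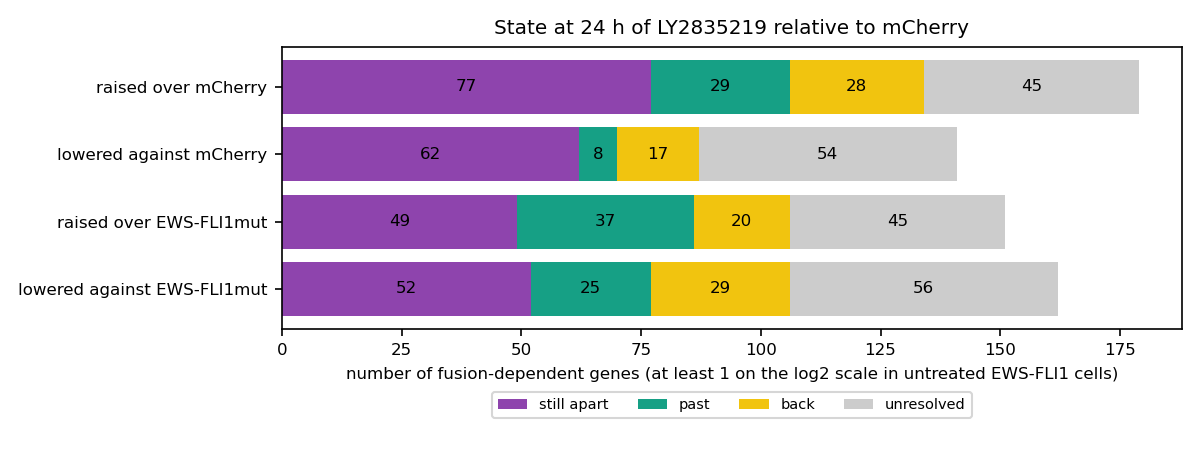
Number of fusion-dependent genes (x axis) in each state at 24 h of LY2835219 relative to mCherry, for genes raised or lowered in untreated EWS-FLI1 cells against mCherry and against EWS-FLI1mut cells (rows). Coloured segments and their printed numbers give the genes still apart, past, back and unresolved.

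Raised genes that stayed apart included LRRC32, MMP9, BGN and CDKN2B. LRRC32, the surface protein GARP that holds latent TGF-beta, had 18.1, 24.1 and 13.6 CPM at 24 h, against 1.9, 0.487 and 1.28 CPM in mCherry cells, higher than in untreated fusion cells at 7.15 ± 0.6475 CPM. Its log2 fold change over mCherry was 3.90 ± 0.32, adjusted p = 4.94e-10. MMP9, the gelatinase B that degrades basement membrane collagen, had 123, 123.5 and 94.9 CPM at 24 h, against 10.65, 12.7 and 14 CPM in mCherry cells (3.19 ± 0.24, adjusted p = 8.36e-11). Untreated fusion cells had 60.15 ± 19 CPM of MMP9. In both genes the 24 h libraries were the highest of the 3 groups.

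BGN, the matrix proteoglycan biglycan, was still above mCherry but below the untreated fusion cells. It had 3.5, 3.14 and 2.54 CPM at 24 h, against 0.474, 1.22 and 0.854 CPM in mCherry cells (1.86 ± 0.33, adjusted p = 4.52e-05). Untreated fusion cells had 6.63 ± 1.54 CPM of BGN. CDKN2B, the CDK4/6 inhibitor protein p15, had 9.02, 7.37 and 6.58 CPM at 24 h, against 2.85, 2.68 and 2.775 CPM in mCherry cells (1.47 ± 0.27, adjusted p = 8.14e-05). Its level in untreated fusion cells was 13.5 ± 2.075 CPM. RELB, a subunit of non-canonical NF-kB, was still apart at 24.8, 26 and 24.2 CPM at 24 h, against 8.43, 7.07 and 9.61 CPM in mCherry cells (1.57 ± 0.12, adjusted p = 7.51e-11). COL16A1, a fibril-associated collagen, was at 179, 186.5 and 188 CPM at 24 h, against 90.7, 84.6 and 89.5 CPM in mCherry cells (1.06 ± 0.06, adjusted p = 1.03e-12), a difference close in size to that of untreated fusion cells, 1.04.

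Besides KIAA1210, the raised genes that were past the mCherry level included CTGF, the matricellular target of YAP and TGF-beta, at 69.25, 75.05 and 68.2 CPM at 24 h, against 203.5, 227 and 225 CPM in mCherry cells. Its log2 fold change was -1.63 ± 0.07, adjusted p = 2.98e-15, against 1.03 in untreated fusion cells, and no 24 h library reached the mCherry range. DES, the muscle intermediate filament desmin, was at 0.0531, 0.11 and 0.104 CPM at 24 h, against 0.422, 0.487 and 0.747 CPM in mCherry cells (-2.55 ± 0.66, adjusted p = 0.00249). COL8A2, a short-chain collagen, was at 1.17, 0.55 and 0.778 CPM at 24 h, against 1.74, 2.5 and 1.87 CPM in mCherry cells (-1.28 ± 0.38, adjusted p = 0.00757). Both are low in all libraries. DES lost its call with limma on log2(TPM + 1) and COL8A2 under the null of up to 0.5. GGTLC2, KLHDC8A and PHLDA2 were called past with log2 fold changes of -1.97, -0.67 and -1.07. PHLDA2 lost its call under 10 and KLHDC8A under 7 of 16 alternative fits, GGTLC2 lost it without mCherry replicate 1, and 71.3% of the stretches of GGTLC2 occur in other genes.

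A2M, the protease inhibitor alpha-2-macroglobulin, was back, with 32.7, 31 and 32.2 CPM at 24 h, against 20.6, 30.2 and 32.7 CPM in mCherry cells. Its groups overlapped (0.20 ± 0.17, adjusted p = 0.363, interval -0.16 to 0.56), and untreated fusion cells were at 89.3 ± 11.9 CPM. EPPK1, the cytolinker epiplakin, was back as well, with 2.02, 2.64 and 1.97 CPM at 24 h, against 3.74, 1.04 and 2.08 CPM in mCherry cells and an interval of -0.71 to 0.58.

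Among lowered genes, CAV1, the scaffold protein of caveolae, was still apart and below the level of untreated fusion cells. It had 95, 92.4 and 94.9 CPM at 24 h, against 303, 264 and 261 CPM in mCherry cells (-1.55 ± 0.08, adjusted p = 6.02e-14). Untreated fusion cells had 132 ± 4.75 CPM of CAV1. KCNK10, a potassium channel, had 0.955, 1.1 and 1.5 CPM at 24 h, against 5.9, 6.64 and 6.885 CPM in mCherry cells (-2.44 ± 0.27, adjusted p = 7.4e-08). STC1, the secreted glycoprotein stanniocalcin-1, had 1.91, 1.49 and 1.24 CPM at 24 h, against 10.5, 9.99 and 9.02 CPM in mCherry cells (-2.67 ± 0.23, adjusted p = 8.8e-10). FHOD3, a formin of sarcomeres, had 5.04, 4.62 and 4.925 CPM at 24 h, against 12.2, 11.45 and 11.7 CPM in mCherry cells (-1.28 ± 0.15, adjusted p = 2.07e-07). In all 4 genes the groups did not overlap. KRI1, a nucleolar protein of ribosome assembly, was called still apart with uneven 24 h libraries, 7.75, 24.65 and 17.7 CPM at 24 h, against 46.2, 36.25 and 34.3 CPM in mCherry cells (-1.22 ± 0.43, adjusted p = 0.0231), and lost its call under 6 of 16 alternative fits, including those without 24 h replicate 1 and without mCherry replicate 1.

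SPP1, the bone matrix protein osteopontin, was a lowered gene that ended past the mCherry level. It had 11.4, 11.55 and 10.8 CPM at 24 h, against 6.27, 6.09 and 7.85 CPM in mCherry cells (0.74 ± 0.20, adjusted p = 0.00447). Untreated fusion cells had 2.735 ± 0.781 CPM of SPP1. The call of SPP1 was lost with length correction, with limma on TPM and under the null of up to 0.5. NIPAL4, a magnesium transporter of skin, had 11.7, 11.6 and 10.2 CPM at 24 h, against 6.38, 4.325 and 5.18 CPM in mCherry cells (1.07 ± 0.17, adjusted p = 1.21e-05), also past. CD68, a lysosomal glycoprotein of macrophages, had 19.1, 16.8 and 19.3 CPM at 24 h, against 5.11, 4.93 and 5.98 CPM in mCherry cells (1.78 ± 0.20, adjusted p = 8.47e-08), but 98.5% of its stretches occur in other genes.

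PRRX1, a mesenchymal homeobox factor, and TTC39A were back, with intervals of -0.57 to -0.01 and -0.34 to 0.51. PRRX1 had 7.75, 8.25 and 8.5 CPM at 24 h, against 9.54, 9.75 and 10.7 CPM in mCherry cells, so its 3 libraries at 24 h still lay just below all mCherry libraries even though it was not called (adjusted p = 0.0844). TTC39A overlapped, with 5.94, 6.33 and 6.01 CPM at 24 h, against 6.17, 4.81 and 6.24 CPM in mCherry cells. CFI, complement factor I, was back as well (-0.71 to 0.28), with 72% of its stretches in other genes.

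A definition that shares no library with the comparison at 24 h took the genes called with the same size between untreated EWS-FLI1 and EWS-FLI1mut cells, 151 raised (0.9%) and 162 lowered (0.965%). Of the 151 raised genes, 49 (32.5%) were still above mCherry at 24 h, 37 (24.5%) were below it, 20 were back and 45 were unresolved. Of all genes tested, 24% were higher and 24.5% lower, so the share below mCherry was that of all genes. The raised genes had a median log2 fold change of 0.32 at 24 h over mCherry and 1.13 in untreated fusion cells over mCherry. Of the 162 lowered genes, 52 (32.1%) were still below, 25 (15.4%) above, 29 back and 56 unresolved, with a median of -0.26 at 24 h. The 25 include FLI1 itself, which had 642 ± 19.9 CPM in EWS-FLI1mut cells. Membership here is set against EWS-FLI1mut and states against mCherry, so a gene can be back without having moved. At 24 h against untreated fusion cells, all 28 raised and 17 lowered genes back under the mCherry definition were called towards mCherry. Under the EWS-FLI1mut definition, 16 of 20 raised and 17 of 29 lowered were. Those 29 had a median of -0.79 in untreated fusion cells over mCherry. CDH5 and CD248 were back, KIAA1210 and KLHDC8A past, and LRRC32, MMP9, BGN and CDKN2B still apart under this definition too. MMP3 was a lowered gene here, -1.35 against EWS-FLI1mut on the log2 scale, and ended past mCherry at the level given above.

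Cell cycle genes were lower at 24 h in nearly every member of their lists. All 40 genes of the E2F/G1-S list, which holds E2F factors, cyclin E and the machinery of DNA replication, passed the filter on low counts, and 39 were lower at 24 h (24.5% of all genes tested were lower), none higher. Their median log2 fold change was -1.42 at 24 h and -0.34 in untreated fusion cells. All 35 genes of the G2/M list, which holds mitotic cyclins, kinases, kinesins and centromere proteins, were lower, with a median of -1.39 at 24 h and -0.26 in untreated fusion cells. In bulk RNA, fewer cells in a phase and less RNA per cell cannot be told apart.

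CCNE2, a cyclin that drives CDK2 at the start of S phase, had 3.4, 1.76 and 3.11 CPM at 24 h, against 18.8, 20.35 and 19.4 CPM in mCherry cells (-2.82 ± 0.17, adjusted p = 1.58e-12). Its relative CCNE1 had 29.2, 24.2 and 22.45 CPM at 24 h, against 91.25, 88.15 and 82.9 CPM in mCherry cells (-1.79 ± 0.09, adjusted p = 3.89e-14). The transcription factors E2F1 and E2F2 followed, with 17.2, 18.05 and 16.2 CPM at 24 h, against 92.5, 73.9 and 73.3 CPM in mCherry cells for E2F1 (-2.22 ± 0.11, adjusted p = 4.69e-14) and 5.47, 3.74 and 3.63 CPM at 24 h, against 30.1, 26.25 and 26.85 CPM in mCherry cells for E2F2 (-2.69 ± 0.14, adjusted p = 1.48e-13). RRM2, the regulated subunit of ribonucleotide reductase, had 35.7, 30.1 and 38.2 CPM at 24 h, against 256, 187 and 197 CPM in mCherry cells (-2.62 ± 0.13, adjusted p = 8.38e-14). MCM7, a subunit of the replicative helicase, had 204, 206 and 202 CPM at 24 h, against 626.5, 624 and 629.7 CPM in mCherry cells (-1.62 ± 0.05, adjusted p = 1.05e-17). Every 24 h library lay below every mCherry library in these 6 genes. Of the stretches of CCNE2 and RRM2, 55.3% and 35.9% occur in other genes. The exception of the list was E2F7, a repressor E2F, at 88.35, 75.7 and 76.7 CPM at 24 h, against 93.4, 88.3 and 85.1 CPM in mCherry cells (-0.15 ± 0.06, adjusted p = 0.0558), whose 24 h values ran into the mCherry range.

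MKI67, the proliferation antigen Ki-67, had 229, 199 and 217 CPM at 24 h, against 891, 812 and 766 CPM in mCherry cells (-1.94 ± 0.07, adjusted p = 1.33e-16). KIF11, the kinesin that separates spindle poles, had 59.3, 58.3 and 64.2 CPM at 24 h, against 218, 209 and 222 CPM in mCherry cells (-1.84 ± 0.07, adjusted p = 6.54e-16). MAD2L1, a spindle checkpoint protein, had 42.1, 40.2 and 47.95 CPM at 24 h, against 141, 157 and 144 CPM in mCherry cells (-1.76 ± 0.09, adjusted p = 4.13e-14). TOP2A, the topoisomerase of chromosome condensation, had 325, 317 and 360.4 CPM at 24 h, against 1049, 1126 and 1053 CPM in mCherry cells (-1.69 ± 0.07, adjusted p = 1.28e-15). The groups did not overlap in any of the 4, and the members of the list ranged from -1.96 to -0.61 on the log2 scale. NUSAP1, at -1.96, shares 70.6% of its stretches with other genes.

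Promoters of these lists are shown because their members moved together. The windows are the 250 bases before the RefSeq start of each gene, on GRCh38.p14, read 5′ to 3′ on the strand of the gene, and capitals mark the letters searched for. The E2F motif was searched as TTTCCCGC or TTTGGCGC and the CHR element of G2/M genes as TTTGAA, each on both strands, so that TTCAAA in the KIF11 window is a match on the other strand. The genes shown are among the members with the largest differences in each list whose window held a match.

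E2F2, chr1:23531234-23531483, minus strand: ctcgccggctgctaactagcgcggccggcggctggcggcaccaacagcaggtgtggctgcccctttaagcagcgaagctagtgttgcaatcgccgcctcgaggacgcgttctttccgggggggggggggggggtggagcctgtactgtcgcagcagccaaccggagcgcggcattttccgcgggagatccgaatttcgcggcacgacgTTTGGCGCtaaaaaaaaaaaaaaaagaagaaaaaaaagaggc

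E2F1, chr20:33686386-33686635, minus strand: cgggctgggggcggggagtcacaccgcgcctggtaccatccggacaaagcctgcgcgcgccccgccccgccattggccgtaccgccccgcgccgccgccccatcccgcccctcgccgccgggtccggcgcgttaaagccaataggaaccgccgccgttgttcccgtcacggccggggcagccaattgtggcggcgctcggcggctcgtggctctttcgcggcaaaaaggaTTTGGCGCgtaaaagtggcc

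MKI67, chr10:128126424-128126673, minus strand: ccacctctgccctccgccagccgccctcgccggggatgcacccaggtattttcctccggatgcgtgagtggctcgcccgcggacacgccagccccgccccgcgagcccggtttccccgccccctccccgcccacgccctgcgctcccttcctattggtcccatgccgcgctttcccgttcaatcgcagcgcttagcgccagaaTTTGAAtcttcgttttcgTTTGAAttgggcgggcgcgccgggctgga

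KIF11, chr10:92592880-92593129, plus strand: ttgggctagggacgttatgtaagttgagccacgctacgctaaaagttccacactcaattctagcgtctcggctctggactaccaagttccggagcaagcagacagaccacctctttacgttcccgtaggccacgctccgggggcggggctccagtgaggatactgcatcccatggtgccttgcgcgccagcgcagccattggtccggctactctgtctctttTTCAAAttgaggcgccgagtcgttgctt

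The E2F letters occurred in 13 of the 35 E2F/G1-S windows on hand (37.1%) and in 2.89% of the 12270 windows of genes tested. The CHR letters occurred in 14 of 28 G2/M windows (50%) and in 9.01% of the windows of genes tested. A match is a description of the letters and not a site of binding. The windows counted for a list are those of all its tested members, called or not. They describe the list and not the difference at 24 h. The tandem GGAAGGAA, a short form of the repeats that EWS-FLI1 binds, occurred in 1 of 48 windows of raised genes still apart (2.08%), 0 of 19 of those past, 1 of 20 of those back (5%) and 2 of 32 of those unresolved (6.25%), beside 3.13% of the windows of genes tested. With raised genes defined against EWS-FLI1mut it occurred in 2 of 31 windows of genes still apart (6.45%), 1 of 26 past (3.85%), 1 of 15 back (6.67%) and 3 of 34 unresolved (8.82%), all counts of 3 or fewer.

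The machinery that the drug acts on was called in both directions. Of 14 tested members of the CDK4/6-RB list, 5 were higher and 6 lower at 24 h. Of all genes tested, 24% were higher and 24.5% lower. CCND2, the D-type cyclin that partners CDK4 and CDK6, had 1193, 1169 and 1167 CPM at 24 h, against 218, 206 and 189 CPM in mCherry cells (2.52 ± 0.05, adjusted p = 2.49e-20), a clear separation in an abundant gene, against 239.9 ± 8.06 CPM in untreated fusion cells. CCND3 had 21.3, 21.4 and 19.6 CPM at 24 h, against 46.7, 42.1 and 46.2 CPM in mCherry cells (-1.12 ± 0.08, adjusted p = 4.61e-11). CCND1 had 256, 255 and 254 CPM at 24 h, against 289.5, 271 and 271 CPM in mCherry cells and was not called (-0.12 ± 0.06, adjusted p = 0.0839). CDK4 and CDK6 were both called higher, with log2 fold changes of 0.34 and 0.42. The INK4 inhibitors differed among themselves. CDKN2B was higher, as given above. CDKN2C was at 33.4, 36.3 and 29.4 CPM at 24 h, against 94.4, 104 and 97.5 CPM in mCherry cells (-1.58 ± 0.09, adjusted p = 3.8e-13). CDKN2D was at 4.03, 4.24 and 4.2 CPM at 24 h, against 12.9, 9.99 and 10.9 CPM in mCherry cells (-1.44 ± 0.15, adjusted p = 2.68e-08). RB1 and its relative RBL1 were lower, -0.74 and -1.13 on the log2 scale.

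Lysosomal genes were mostly higher at 24 h. Of 41 members of the list of lysosomal proteins, 30 were higher (24% of all genes tested were higher) and 4 lower, with a median log2 fold change of 0.73 at 24 h and 0.17 in untreated fusion cells. Of 16 subunits of the V-ATPase, the proton pump that acidifies lysosomes, 13 were higher and none lower, with a median of 0.53 at 24 h and 0.07 in untreated fusion cells. Against a null of up to 0.5 on the log2 scale, 7 of these 16 were called higher (6.09% of all genes tested).

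NEU1, the lysosomal sialidase, had 24.8, 24.9 and 21.4 CPM at 24 h, against 4.74, 5.73 and 5.66 CPM in mCherry cells (2.14 ± 0.19, adjusted p = 1.82e-09). Whether reads of NEU1 were assigned to dropped transcripts without a GENCODE match was not tested. SMPD1, the acid sphingomyelinase, had 47.4, 54.3 and 44.1 CPM at 24 h, against 15.8, 13 and 14 CPM in mCherry cells (1.77 ± 0.11, adjusted p = 3.24e-12). TPP1, a lysosomal peptidase, had 275, 269.8 and 252 CPM at 24 h, against 87.2, 89.85 and 92 CPM in mCherry cells (1.57 ± 0.08, adjusted p = 4.47e-14). The protective protein CTSA, which forms a complex with NEU1, had 264, 275 and 228 CPM at 24 h, against 103, 113.5 and 108 CPM in mCherry cells (1.24 ± 0.07, adjusted p = 4.69e-13). Each of these 4 was at least 2-fold higher in every 24 h library than in any mCherry library. PSAP, the precursor of saposins, was the most abundant of those named, at 1551, 1707 and 1404 CPM at 24 h, against 623.5, 636 and 653 CPM in mCherry cells (1.29 ± 0.06, adjusted p = 6.02e-14). The 4 lower members were LAMP3, CTSL, CTSZ and GUSB, at -0.76 to -0.24 on the log2 scale. CTSS, a cathepsin of low level here, had 0.584, 0.715 and 1.09 CPM at 24 h, against 0.264, 0.244 and 0.0534 CPM in mCherry cells (2.06 ± 0.83, adjusted p = 0.0429) and lost its call under 7 of 16 alternative fits.

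In the proton pump, ATP6V0D1 had 81.4, 89.4 and 74.8 CPM at 24 h, against 32.9, 34.05 and 32.9 CPM in mCherry cells (1.30 ± 0.07, adjusted p = 7.46e-13). ATP6V0E1, another membrane-sector subunit, had 93.7, 109 and 105 CPM at 24 h, against 46.8, 47.9 and 57.7 CPM in mCherry cells (1.01 ± 0.08, adjusted p = 3.48e-10). ATP6V1H of the cytosolic sector had 35.8, 40.9 and 37.1 CPM at 24 h, against 21.4, 22.2 and 20.2 CPM in mCherry cells (0.84 ± 0.09, adjusted p = 3.51e-08). The groups were apart in all 3. ATP6V0A1, ATP6V0C and ATP6V1E1 were not called.

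MiT/TFE factors, which activate lysosomal and autophagy genes, bind the CLEAR element, searched here as its core TCACGTGA on both strands. The windows of CTSA and ATP6V0D1 are shown for the same reason and in the same way as above.

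CTSA, chr20:45891085-45891334, plus strand: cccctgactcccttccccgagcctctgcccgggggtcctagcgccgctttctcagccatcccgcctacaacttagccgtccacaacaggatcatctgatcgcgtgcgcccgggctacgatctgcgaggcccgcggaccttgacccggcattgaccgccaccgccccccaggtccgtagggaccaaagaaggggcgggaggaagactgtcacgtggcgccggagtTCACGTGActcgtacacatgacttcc

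ATP6V0D1, chr16:67481158-67481407, minus strand: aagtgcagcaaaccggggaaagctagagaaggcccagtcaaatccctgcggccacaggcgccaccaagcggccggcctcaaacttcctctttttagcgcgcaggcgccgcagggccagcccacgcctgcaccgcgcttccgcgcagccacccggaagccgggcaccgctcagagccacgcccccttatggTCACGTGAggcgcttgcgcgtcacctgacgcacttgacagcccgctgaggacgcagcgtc

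The core occurred in 5 of 28 lysosomal windows on hand (17.9%), in 2 of 11 V-ATPase windows (18.2%) and in 1.5% of the windows of genes tested. It occurred in 0 of 29 windows of the autophagy and MiT/TFE list and in 0 of 28 G2/M windows, and in 3 of 35 windows of the E2F/G1-S list (8.57%), whose members were lower. Here too members were counted whether called or not.

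Of 31 tested autophagy and MiT/TFE genes, 17 were higher and 9 lower, beside 24% higher and 24.5% lower of all genes tested. Their median was 0.30. GPNMB, a transmembrane glycoprotein that is a known MiT/TFE target, had 127, 133 and 117 CPM at 24 h, against 15.9, 15.05 and 14.7 CPM in mCherry cells (3.05 ± 0.11, adjusted p = 3.52e-16), far apart from mCherry and from the 15.8 ± 1.15 CPM of untreated fusion cells. OPTN and SQSTM1, both receptors of selective autophagy, had 119, 125 and 110.0 CPM at 24 h, against 41.1, 44.6 and 43.3 CPM in mCherry cells for OPTN (1.46 ± 0.07, adjusted p = 2.68e-14) and 548, 553 and 491 CPM at 24 h, against 221.5, 219 and 243 CPM in mCherry cells for SQSTM1 (1.22 ± 0.06, adjusted p = 2.71e-14). RRAGD, a GTPase that recruits mTORC1 to lysosomes, had 43.2, 42.7 and 37.6 CPM at 24 h, against 14.2, 16.5 and 15.9 CPM in mCherry cells (1.41 ± 0.10, adjusted p = 1.9e-11). Of the factors themselves, MITF was lower at 6.845, 6.11 and 5.86 CPM at 24 h, against 15.7, 16.4 and 15.8 CPM in mCherry cells (-1.35 ± 0.12, adjusted p = 3.44e-09), TFE3 higher by 0.37, and TFEB, at 0.15 ± 0.13, was not called. ULK1, ULK2, ATG5, ATG9A and ATG13, which act early in autophagosome formation, were among the 9 lower members.

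**Figure D4:**
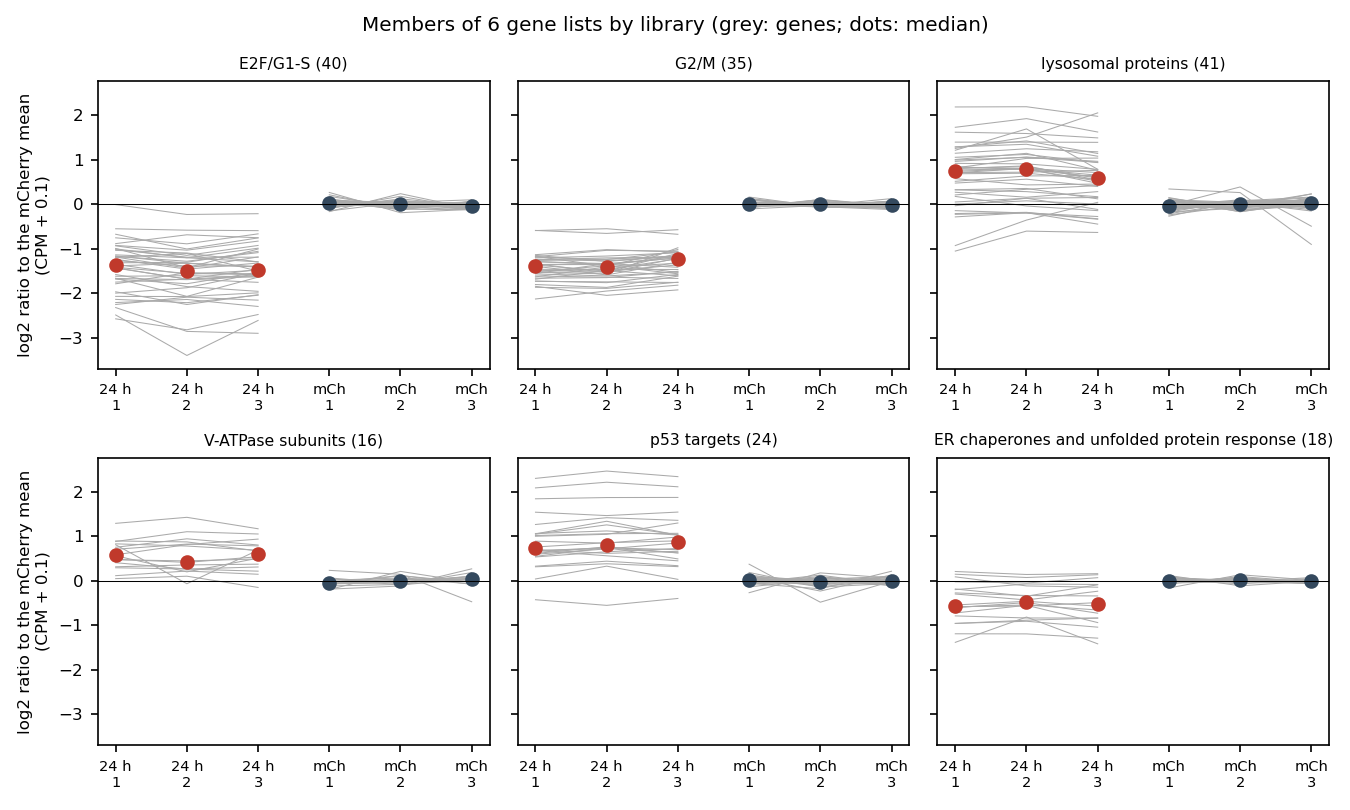
Log2 ratio of each library's CPM + 0.1 to the mean of the mCherry libraries (y axis) for the tested members (grey lines) of 6 gene lists, with the median as dots, in 24 h EWS-FLI1 libraries (red) and mCherry libraries (dark blue, mCh). Medians of the E2F/G1-S and G2/M lists lie below -1 in all 3 libraries at 24 h, those of the lysosomal, V-ATPase and p53 lists above 0 and those of the ER list below 0.

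Targets of p53, the tumour suppressor that U2OS cells retain, were mostly higher. Of 24 tested targets, 22 were higher and 1 lower, beside 24% higher and 24.5% lower of all genes tested. Their median was 0.78 at 24 h and 0.04 in untreated fusion cells. TP53INP1, a stress protein that promotes autophagy and cell death, had 131, 143 and 133 CPM at 24 h, against 25.6, 34.8 and 32.1 CPM in mCherry cells (2.14 ± 0.09, adjusted p = 3.7e-15). GADD45A, a growth arrest gene, had 122, 124.5 and 125 CPM at 24 h, against 35.85, 34.6 and 31.65 CPM in mCherry cells (1.86 ± 0.07, adjusted p = 1.45e-15). ZMAT3, an RNA-binding target, had 158, 149.5 and 158 CPM at 24 h, against 51.5, 56.9 and 54.2 CPM in mCherry cells (1.52 ± 0.08, adjusted p = 1.67e-13). CDKN1A, the CDK inhibitor p21, was higher by less, at 204, 226 and 206 CPM at 24 h, against 141, 129 and 130.1 CPM in mCherry cells (0.67 ± 0.06, adjusted p = 1.07e-09). The 24 h libraries were above all mCherry libraries in these genes. MDM2, the ubiquitin ligase of p53, had 173, 168 and 185 CPM at 24 h, against 96.7, 92.8 and 90.7 CPM in mCherry cells (0.91 ± 0.07, adjusted p = 8.32e-11), while PLK2 was the lower member at -0.46. The list shares CDKN1A with the CDK4/6-RB list and GDF15 and SESN2 with the stress list.

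Stress response genes were called in both directions. Of 28 genes of the ATF4 and integrated stress response list, 9 were higher and 13 lower. Of all genes tested, 24% were higher and 24.5% lower, and the list median was -0.10. GDF15, a stress cytokine, had 12.3, 13.8 and 12.65 CPM at 24 h, against 3.16, 1.71 and 2.4 CPM in mCherry cells (2.40 ± 0.19, adjusted p = 2.9e-10). DDIT4, an mTORC1 inhibitor, had 208, 245 and 201 CPM at 24 h, against 61.2, 59.8 and 63.2 CPM in mCherry cells (1.83 ± 0.11, adjusted p = 1.02e-12), with 45.8% of its stretches in other genes. PPP1R15A, the GADD34 phosphatase subunit, had 80.1, 80.7 and 70.3 CPM at 24 h, against 28, 26.9 and 26.6 CPM in mCherry cells (1.50 ± 0.07, adjusted p = 4.29e-14). The transporter SLC7A11 was lower at 70.2, 60 and 77 CPM at 24 h, against 149, 165 and 148 CPM in mCherry cells (-1.16 ± 0.08, adjusted p = 6.26e-11), and its log2 fold change in untreated fusion cells over mCherry was -1.02. FGF21, a hormone, was lower at 0.159, 0.11 and 0.0518 CPM at 24 h, against 1.74, 0.609 and 1.6 CPM in mCherry cells (-3.56 ± 0.63, adjusted p = 4.8e-05), all low levels. Amino acid synthesis members of the list, PSAT1, PHGDH, PSPH and ASNS, were lower, at -0.48 to -0.24 on the log2 scale, and DDIT3, the factor CHOP, was higher by 1.47.

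Chaperones of the endoplasmic reticulum were lower or not called. Of 18 members, 13 were lower (24.5% of all genes tested) and none higher. Their median was -0.54 at 24 h and -0.05 in untreated fusion cells. Against a null of up to 0.5, 7 were called lower (8.7% of all genes tested). MANF, a secreted stress factor, had 31.4, 31.4 and 29.3 CPM at 24 h, against 71.6, 73.9 and 70.3 CPM in mCherry cells (-1.23 ± 0.07, adjusted p = 2.27e-13). CALR, the chaperone calreticulin, had 533, 551 and 503 CPM at 24 h, against 1033, 1046 and 1032 CPM in mCherry cells (-0.97 ± 0.05, adjusted p = 2.83e-14). HSPA5, the chaperone BiP, had 400.4, 388 and 387 CPM at 24 h, against 731, 686 and 661 CPM in mCherry cells (-0.82 ± 0.05, adjusted p = 6.09e-12). These abundant genes were clearly apart between the groups. XBP1, DNAJB9, DNAJC3, EDEM1 and CANX were not called.

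Cholesterol genes were lower in 13 and higher in 3 of 24 members, beside 24.5% lower and 24% higher of all genes tested. Their median was -0.26 at 24 h. Untreated fusion cells had a median of 0.18 and 10 members called higher (11.1% of all genes tested). FDFT1, the squalene synthase, had 35.5, 34 and 36.2 CPM at 24 h, against 66, 64.3 and 65 CPM in mCherry cells (-0.89 ± 0.06, adjusted p = 6.13e-11). EBP, a sterol isomerase, had 23.7, 22.7 and 21.8 CPM at 24 h, against 41.6, 37.1 and 44.1 CPM in mCherry cells (-0.85 ± 0.08, adjusted p = 2.05e-09). The groups did not overlap in either. The number of higher members was 1 without 24 h replicate 2, without mCherry replicate 2 or without mCherry replicate 3.

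Of 17 tested YAP/TEAD targets, 11 were lower and 1 higher, beside 24.5% lower and 24% higher of all genes tested. Their median was -0.35 at 24 h and 0.15 in untreated fusion cells, where 7 were higher (11.1% of all genes tested). CTGF, described above, had the largest difference, followed among the called members by WWTR1, the YAP relative TAZ, with 27.65, 25.6 and 25.9 CPM at 24 h, against 51.45, 51.9 and 53.3 CPM in mCherry cells (-0.98 ± 0.07, adjusted p = 5.81e-11). CYR61, a matricellular protein related to CTGF, had 114, 116 and 115 CPM at 24 h, against 180.4, 168 and 168 CPM in mCherry cells (-0.58 ± 0.06, adjusted p = 3.09e-08) and lost its call under the null of up to 0.5. Of 15 tested MAPK feedback genes, 4 were lower and 2 higher, a share of lower members near the 24.5% of all genes tested. The lower ones were SPRY4, an inhibitor of receptor signalling, at 1.645, 0.605 and 0.881 CPM at 24 h, against 4.64, 7.8 and 4.64 CPM in mCherry cells (-2.43 ± 0.33, adjusted p = 1.82e-06), and the ETS factors ETV1, ETV4 and ETV5, at -1.23, -0.75 and -1.18 on the log2 scale. Of 14 tested immediate early genes, 7 were higher and 3 lower, beside 24% higher and 24.5% lower of all genes tested. FOSL2 had 729, 734 and 655 CPM at 24 h, against 418, 377.5 and 377 CPM in mCherry cells (0.85 ± 0.06, adjusted p = 9.32e-12). The number of lower members was 0 without 24 h replicate 1 or with length offsets, and 1 without 24 h replicate 3 or without mCherry replicate 1 or 2.

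Smooth muscle and SRF target genes were called in both directions, 5 higher and 7 lower of 16. Of all genes tested, 24% were higher and 24.5% lower. ACTA2, smooth muscle actin, had 14.75, 19.5 and 14 CPM at 24 h, against 3.005, 1.89 and 1.975 CPM in mCherry cells (2.80 ± 0.23, adjusted p = 4.1e-10). TAGLN, the actin-binding protein transgelin, had 96.7, 95.1 and 100.4 CPM at 24 h, against 53.9, 41.55 and 51.3 CPM in mCherry cells (0.99 ± 0.10, adjusted p = 1.02e-08). MYOCD, which activates such genes in muscle, was the lowest of the list, as described above. The 24 h libraries were above mCherry for ACTA2 and TAGLN and below for MYOCD without overlap, and 33.2% of the stretches of ACTA2 occur in other genes.

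Matrix genes and proteases were higher in many members. Of 19 tested metalloproteinases and inhibitors, 8 were higher and 3 lower, beside 24% higher and 24.5% lower of all genes tested. MMP3 and MMP9 led the higher ones. MMP19 had 33.8, 35.05 and 33 CPM at 24 h, against 14.2, 13.5 and 15.2 CPM in mCherry cells (1.25 ± 0.11, adjusted p = 1.5e-09). ADAMTS9, an aggrecan-cleaving protease, had 5.94, 6.66 and 5.18 CPM at 24 h, against 2.53, 1.89 and 1.6 CPM in mCherry cells (1.56 ± 0.27, adjusted p = 3.48e-05). Of 23 collagens, 12 were higher and 6 lower, beside the same 24% and 24.5% of all genes tested. Their median was 0.32 at 24 h and 0.46 in untreated fusion cells. COL6A3, of the microfibrillar collagen VI, had 717, 711 and 626 CPM at 24 h, against 280.1, 338 and 345 CPM in mCherry cells (1.09 ± 0.11, adjusted p = 8.24e-09). COL5A1, of fibrillar collagen V, had 569, 595 and 544 CPM at 24 h, against 278, 261 and 283 CPM in mCherry cells (1.05 ± 0.06, adjusted p = 2.24e-12). COL3A1 was lower at 72.4, 92.6 and 73.7 CPM at 24 h, against 124, 130.5 and 130.3 CPM in mCherry cells (-0.69 ± 0.10, adjusted p = 5.14e-06).

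Of 17 tested osteoblast and bone matrix genes, 8 were higher and 2 lower, beside 24% higher and 24.5% lower of all genes tested. FN1, the matrix protein fibronectin, had 2404, 2421 and 2212 CPM at 24 h, against 791, 907.5 and 1018 CPM in mCherry cells (1.37 ± 0.16, adjusted p = 1.11e-07). ALPL, the bone alkaline phosphatase, had 8.44, 8.47 and 9.38 CPM at 24 h, against 3.32, 3.47 and 3.9 CPM in mCherry cells (1.30 ± 0.21, adjusted p = 1.65e-05). BMP4, a bone morphogen, was lower at 37.7, 35.6 and 33.4 CPM at 24 h, against 151, 143.5 and 145 CPM in mCherry cells (-2.04 ± 0.07, adjusted p = 3.37e-16). RUNX2, the master factor of osteoblasts, was higher by 0.51 ± 0.07. The summed level of the list was 7349 ± 654.8 CPM at 24 h and 4694 ± 173.9 CPM in mCherry cells (SD, n = 3 each), an exact two-sided permutation p of 0.1, the smallest possible. That sum weighs abundant members such as FN1 most and does not describe the members of low level.

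NF-kB and inflammatory genes were higher in 9 and lower in 2 of 19 tested members. Of all genes tested, 24% were higher and 24.5% lower. The list median was 0.69 at 24 h and 0.48 in untreated fusion cells. Without 24 h replicate 1 or 3, or without mCherry replicate 2 or 3, 1 was lower. TNFAIP3, the feedback inhibitor A20, had 16.1, 14.5 and 15.6 CPM at 24 h, against 5.59, 7.615 and 6.565 CPM in mCherry cells (1.23 ± 0.13, adjusted p = 2.08e-08). NFKBIA, the inhibitor IkB-alpha, had 43.2, 39.3 and 39.1 CPM at 24 h, against 24.9, 23.7 and 26.7 CPM in mCherry cells (0.69 ± 0.08, adjusted p = 3.36e-07). CXCL3, a neutrophil chemokine, was low but apart at 1.49, 1.155 and 1.61 CPM at 24 h, against 0.316, 0.244 and 0.267 CPM in mCherry cells (2.33 ± 0.55, adjusted p = 0.00118). CCL2, a monocyte chemokine at 1.01 in untreated fusion cells over mCherry, was lower at 1.06, 1.76 and 1.35 CPM at 24 h, against 1.58, 2.74 and 3.1 CPM in mCherry cells (-0.83 ± 0.30, adjusted p = 0.0247). Of 29 interferon-stimulated genes, 7 were higher and 7 lower, near the 24% higher and 24.5% lower of all genes tested. Among them were IFIT1 at 7.535, 6.77 and 7.21 CPM at 24 h, against 17.1, 22.4 and 16.3 CPM in mCherry cells (-1.37 ± 0.15, adjusted p = 8.62e-08) and MX1 at 6.1, 5.34 and 7.465 CPM at 24 h, against 3.69, 3.72 and 3.84 CPM in mCherry cells (0.75 ± 0.18, adjusted p = 0.0013), both antiviral proteins. The 7 higher members became 4 without 24 h replicate 3 or without mCherry replicate 2, and 3 with length offsets.

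Genes that the Ewing sarcoma literature lists as activated by the fusion were called in both directions. Of 31 tested, 10 were higher and 8 lower, beside the 24% higher and 24.5% lower of all genes tested. Their median was 0.02 at 24 h and 0.003 in untreated fusion cells. NKX2-2 and NR0B1, hallmark targets in Ewing cells, were not called at 24 h, with 7.59, 6.88 and 7.57 CPM at 24 h, against 8.33, 6.09 and 7.205 CPM in mCherry cells for NKX2-2 (0.02 ± 0.15, adjusted p = 0.908) and 0.69, 0.55 and 1.4 CPM at 24 h, against 2.16, 0.67 and 1.655 CPM in mCherry cells for NR0B1 (-0.77 ± 0.50, adjusted p = 0.223). SOX2, a stem cell factor, was lower at 5.68, 6.38 and 6.065 CPM at 24 h, against 18.1, 28.9 and 27.2 CPM in mCherry cells (-2.03 ± 0.16, adjusted p = 2.59e-10). PAPPA, a protease of IGF-binding proteins, was higher at 14.2, 15.5 and 13.6 CPM at 24 h, against 6.8, 6.7 and 6.78 CPM in mCherry cells (1.09 ± 0.13, adjusted p = 1.32e-07). Of 19 tested genes listed as repressed by the fusion in Ewing cells, 9 were higher and 6 lower. Their median was 0.33 at 24 h and 0.53 in untreated fusion cells. In those untreated cells 15 were higher (11.1% of all genes tested) and none lower (9.95% of all genes tested). TNC, the matrix glycoprotein tenascin-C, had 554, 544 and 490.5 CPM at 24 h, against 234, 235 and 231 CPM in mCherry cells (1.18 ± 0.07, adjusted p = 7.32e-13). THBS1, thrombospondin-1, had 275, 268 and 262.5 CPM at 24 h, against 642, 645 and 649 CPM in mCherry cells (-1.26 ± 0.05, adjusted p = 3.04e-15).

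**Figure D5:**
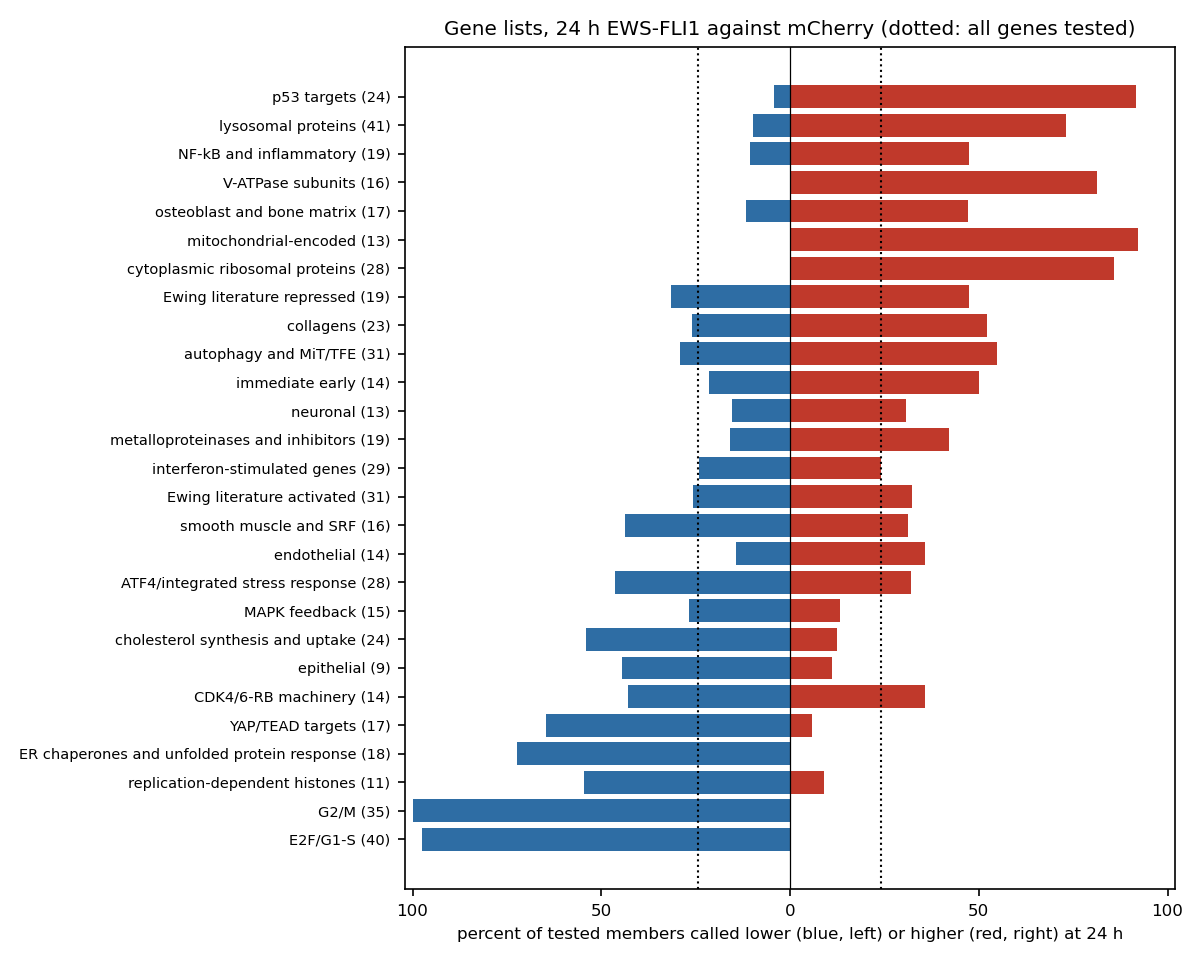
Percent of the tested members of each gene list (rows, tested members in brackets) called higher (red, right) or lower (blue, left) at 24 h against mCherry, with dotted lines at the 24% and 24.5% of all genes tested. The E2F/G1-S and G2/M lists lie at the lower end and the p53, V-ATPase, mitochondrial and ribosomal lists have the largest shares of higher members. The blood cell list, with 3 tested members, is not drawn.

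Marker lists of other tissues were called in both directions, beside the 24% higher and 24.5% lower of all genes tested. The part of these lists in the other results was not tested. Of 14 endothelial genes, 5 were higher and 2 lower, and the list summed to 54.0 to 58.9 CPM at 24 h and 42.5 to 54.7 CPM in mCherry cells. The number higher was 2 without 24 h replicate 2 or mCherry replicate 2, and 3 without 24 h replicate 3, without mCherry replicate 1 or with a replicate block. The number lower was 1 without 24 h replicate 3 or mCherry replicate 3. ROBO4, a guidance receptor of vessels, had 3.93, 5.06 and 4.04 CPM at 24 h, against 0.685, 1.16 and 1.23 CPM in mCherry cells (2.08 ± 0.30, adjusted p = 3.26e-06). TEK, the receptor TIE2, had 0.531, 0.33 and 0.829 CPM at 24 h, against 1.37, 2.315 and 1.49 CPM in mCherry cells (-1.59 ± 0.48, adjusted p = 0.00841). Of 13 tested neuronal genes, 4 were higher and 2 lower (1 lower without 24 h replicate 3), and the list summed to 645 to 760.2 CPM at 24 h and 602.6 to 676 CPM in mCherry cells. Of 9 tested epithelial genes, 1 was higher and 4 lower, and the list summed to 892 to 1015 CPM at 24 h and 1026 to 1153 CPM in mCherry cells. NCAM1, a neural adhesion molecule, had 53.2, 55.1 and 51.4 CPM at 24 h, against 105, 100.1 and 111 CPM in mCherry cells (-0.98 ± 0.07, adjusted p = 1.13e-11). KRT14, a keratin of basal epithelium with 40% of its stretches in other genes, had 1.645, 2.31 and 2.125 CPM at 24 h, against 7.75, 9.26 and 8.54 CPM in mCherry cells (-2.07 ± 0.21, adjusted p = 2.39e-08). None of the 3 tested blood cell genes was called.

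Mitochondrial and ribosomal transcripts were slightly higher, and their part in the other results was not tested. Of 13 mitochondrial-encoded genes, 12 were higher with a median of 0.35, and of 28 cytoplasmic ribosomal proteins, 24 were higher with a median of 0.33, none lower in either list. Of all genes tested, 24% were higher. MT-CO1, a subunit of cytochrome oxidase, had 21600, 21370 and 22410 CPM at 24 h, against 14820, 16360 and 17010 CPM in mCherry cells (0.44 ± 0.06, adjusted p = 5.4e-07). RPL3, a large-subunit protein, had 2989, 3309 and 3035 CPM at 24 h, against 1901, 2081 and 2269 CPM in mCherry cells (0.58 ± 0.06, adjusted p = 2.73e-08). Of the stretches of MT-CO1 and RPL3, 66.7% and 53.6% occur in other genes. Against a null of up to 0.5, none of the mitochondrial and 1 of the ribosomal genes was called. Of 11 tested replication-dependent histone genes, whose transcripts normally carry no polyA tail, 6 were lower (24.5% of all genes tested) and 1 higher. Their summed level was 228.8 ± 11.7 CPM at 24 h and 350.8 ± 13.9 CPM in mCherry cells (exact permutation p = 0.1, two-sided).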

How the data were processed

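PolyA RNA of 18 U2OS libraries was sequenced, and a table of transcripts was deposited by the authors for each. The deposited tables give estimated counts (not normalized), TPM (normalized for transcript length and library) and an effective length, per the file headers. Per the submitters' processing notes, kallisto 0.46, CASAVA and hg38 were used. The transcript set, strandedness and index options are not given in the sources used here. The labels' protocols mention 2 library kits and do not tie them to libraries.

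GENCODE 29 gave the gene of each transcript, matched on the Ensembl identifier without its version. Transcripts without a match, with 2.59% to 2.74% of each library's counts, were dropped. Whether reads of any named gene were assigned to a dropped transcript was not tested. Gene sums of the estimated counts were rounded to whole numbers. Totals were 16261034 to 18995968 counts in the 6 libraries compared and up to 20270637 in all 18. edgeR 4.0.16 in R 4.3.3 (TMM, filterByExpr by group, quasi-likelihood) was fitted to all 18 libraries with 1 mean per group, leaving 16786 genes, 12 residual degrees of freedom and a biological coefficient of variation of 8.77%. The standard error was the size of the log2 fold change divided by the root of F, so it pools the spread over 6 groups. The floor of 3 counts covers counting error only. The scripts were tested on simulated data. Replicates differed by more than sampling noise, with a scaled squared difference of 5.04 to 10.9 per gene.

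Members, gene lists and the naming rule were set with earlier results of these data known. The rule named FLI1, EWSR1 and 4 marker genes, 12 higher and 12 lower protein-coding genes ranked by log2 fold change (called, at least 5 CPM in the higher group, no overlap), up to 4 called members per list, and up to 4 genes per state. Some genes under the rule are left unprinted, and other members of a list are named from it. Lists are described by counts and medians without a test of the list. The alternatives were other scalings, no filter, DESeq2 1.42.0, length offsets, limma 3.58.1 on log2(TPM + 1), only the libraries compared, a null of up to 0.5, a replicate block, leaving out each library, and other bounds and definitions of the states.

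Promoter windows came from RefSeq on GRCh38.p14, with members on chromosome 8 not considered for printing. In 3 of the 6 windows printed, those of E2F2, MKI67 and KIF11, the bases just after the RefSeq start were not found in a GENCODE 29 transcript of the gene. Shared stretches are runs of 31 bases of a gene's most counted transcript that occur in transcripts of other genes. They were counted for the genes under the naming rule only, and smaller shares are not printed.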

Additional observations from a re-analysis of the deposited data

How the results depend on the processing

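Of 146 named genes, 140 had a value under all 16 alternative fits, 5 were not tested in the fit of only the libraries compared and 1, FKBPL, had no adjusted p from DESeq2. Under the fits that gave a value, 116 kept their side of the threshold and direction and 30 lost or gained a call, none with a change of direction. Calls were lost by 26 genes when the null was a difference of up to 0.5, by 9 with limma on log2(TPM + 1) and by 7 with length offsets. Leaving out 1 library lost the calls of 3 to 9 genes, 9 without mCherry replicate 1, 8 without mCherry replicate 2 and 7 without 24 h replicate 2. Under the null of up to 0.5, 2483 genes were called, 1023 higher and 1460 lower. That setting gave 32 raised genes still apart and 11 past, 18 lowered genes still apart, 2 past and 6 back, 7 V-ATPase, 7 ER chaperone, 1 ribosomal and 0 mitochondrial genes, 183 genes for untreated EWS-FLI1 minus mCherry and 192 for untreated EWS-FLI1 minus EWS-FLI1mut. With limma on log2(TPM + 1), 2412 genes were higher, 373 of them by at least 1, with 33 raised genes still apart and 11 past, 24 lowered genes still apart, 0 past and 8 back, 1679 genes for untreated EWS-FLI1 minus mCherry and 1276 for untreated EWS-FLI1 minus EWS-FLI1mut. Length offsets gave 38 lowered genes still apart, 5 past and 10 back, with 1698 and 1263 genes for the same comparisons of untreated cells. Without the low-count filter 17 lowered genes were past.

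With an interval bound of 0.5, 8 raised and 0 lowered genes were back. With membership by adjusted p alone, 895 raised genes were still apart, 363 past and 557 back, and 986 lowered genes were still apart, 202 past and 422 back. With the definition by EWS-FLI1mut, 49 raised genes were still apart, and 25 lowered genes were past and 29 back. Beyond the construction of these settings the cause of each move was not tested.

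Leaving out 1 library at a time gave 7277 to 7562 genes called, 3473 to 3610 higher and 3745 to 3992 lower, with 729 to 767 higher and 1040 to 1074 lower by at least 1. It gave 65 to 85 raised genes still apart, 19 to 30 past and 14 to 34 back, with 49 to 60 lowered genes still apart, 6 to 8 past and 9 to 15 back. Untreated EWS-FLI1 minus mCherry gave 2736 to 3636 genes and untreated EWS-FLI1 minus EWS-FLI1mut 2666 to 2866. The lists gave 39 to 40 E2F/G1-S and 35 G2/M genes lower, 27 to 30 lysosomal, 13 V-ATPase and 22 p53 genes higher, 13 ER chaperone genes lower, 23 to 25 ribosomal and 11 to 12 mitochondrial genes higher.

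Replicate numbers are shared by the groups, but same-numbered libraries did not deviate together (correlations of -0.00432, 0.00678 and -0.0339), so the numbers were not taken as pairs. A replicate block gave 8117 genes called, 4017 higher and 4100 lower, and lost the calls of ICAM1 and VWF among the named genes. A state of unresolved does not place a gene, and its cause was not tested.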

Other observations

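Pseudogenes and coding genes were called at different rates at 24 h against mCherry. The types were not matched for their level of counts, and the cause of the different rates was not tested. Of 15432 protein-coding genes tested, 24.5% were higher and 25.9% lower. Of 419 transcribed unprocessed pseudogenes, 24.3% were higher and 8.11% lower, and of 491 processed pseudogenes, 12.6% were higher and 6.52% lower.

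Besides FKBPL, a few genes with no count in mCherry cells were called at 24 h. ENTHD1 held 111 estimated counts at 24 h and 0 in mCherry cells, which makes 24 h cells at least 35.5-fold higher when mCherry is set to 3 counts. IVL, the cornified envelope protein involucrin, held 72 and 0 counts, at least 23.0-fold higher, and PNLIPRP3, a lipase-related gene, 71 and 0, at least 22.7-fold higher. In the other direction, XIRP1, an actin-binding protein of striated muscle that was called higher in untreated fusion cells than in mCherry cells, held 0 counts at 24 h and 44 in mCherry cells, so that mCherry cells were at least 15.3-fold higher. The floor of 3 counts allows for counting error only, so these folds are not bounds for the spread among libraries. These genes were chosen after their values were seen.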
